A study of Mus musculus with 8 samples.

Results

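The guidance genes described here are 20 semaphorins, 9 plexins, 2 neuropilins, 14 Eph receptors and 8 ephrins, 53 genes of 21631 protein-coding loci in all. The rule that picked them is membership of these gene families and uses no measured value. The locus of a gene was its annotated span (RefSeq, GRCm38.p6, the assembly behind mm10) plus 10 kb on either side, and its level was the number of bases that called H3K4me peaks covered in each library. H3K4me is methylation of lysine 4 of histone H3, and the antibody's catalogue entry is for the monomethylated form, which marks enhancers and the flanks of active promoters. Native chromatin from whole cerebral cortex at embryonic stage E15.5 was digested with micrococcal nuclease, and peaks were called on each library.

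There were 2 libraries of conditional knockout cortex (cKO), which carries Emx1Ires-Cre with both Prdm16 alleles floxed, and 2 libraries of control cortex (WT), labelled Prdm16 flox/flox with no Cre named. PRDM16 is a zinc finger protein with a PR domain that acts on chromatin in neural progenitors. Emx1-driven Cre is active in progenitors of the dorsal telencephalon and in the cells they give rise to, so interneurons from the ventral telencephalon, vessels, microglia and meninges in the same lysate keep the floxed alleles intact. The labels do not say whether replicates came from separate embryos or pools, so every p below measures the spread between these libraries, which may be technical. In a lysate of mixed cells, fewer marked cells and less mark per cell cannot be told apart.

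Semaphorins are secreted or membrane-bound guidance cues that act mainly through plexins, with neuropilins as co-receptors for most secreted class 3 members. Ephrins are membrane-bound ligands of the Eph receptor tyrosine kinases: A-type ephrins hang on a lipid anchor, B-type ephrins cross the membrane, and signals can run into both the receptor cell and the ligand cell. In the developing cortex both systems steer migrating neurons and growing axons and take part in arranging areas and layers.

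The cKO lists were longer than the WT lists. They held 80519 and 82683 peaks over 148.4 and 166.4 Mb in cKO cortex, against 75314 and 66476 peaks over 130.3 and 113.9 Mb in WT cortex. Over the 14941 loci with a mean of at least 1000 covered bases, the median difference was 0.35 on the log2(covered bases + 500) scale before any scaling, so each library was centred on its own median for the comparison of genotypes. Sequencing depth is unknown, and its part in the longer cKO lists was not tested. The 8 dorsal cortex markers used, such as Tbr1 and Neurod6, had a median of 61.9% ± 1.79 of their loci under peaks in cKO cortex and 57.4% ± 3.67 in WT cortex (SD, n = 2 each). The medians for cKO and WT were 19.7% and 15.8% at ventral telencephalic markers, 8.90% and 6.98% at vessel markers, 14.5% and 11.62% at meningeal markers, 6.37% and 4.89% at microglial markers, 1.11% and 0.551% at blood markers, and 9.21% and 7.57% at markers of skeletal muscle and liver, which are foreign to the tissue. Dorsal cortex markers were thus the most covered list in both genotypes, while vessel and microglial markers were no more covered than the muscle and liver list.

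The guidance loci were broadly marked in both genotypes. The median guidance locus had 19.9% ± 3.61 of its bases under peaks in cKO cortex and 16.2% ± 1.67 in WT cortex, against 11.3% ± 1.07 in cKO cortex and 8.26% ± 1.051 in WT cortex over the 14941 loci (SD, n = 2 each). By library the guidance medians were 17.3% and 22.4% in cKO cortex and 17.4% and 15.0% in WT cortex, so the genotypes overlapped. Peaks were present in all 4 libraries at 52 of the 53 loci (98.1%), against 70.3% of all coding loci and 98.2% of the 14941 loci, which were kept for their coverage. The exception was Plxnb3, a plexin B receptor for which no library had a peak base. Guidance loci were also longer, with a median of 56.3 kb against 37.3 kb over all coding loci. Longer loci had smaller covered shares, with a Spearman rho of -0.37 across the 53 loci and -0.39 across all kept loci. Of the 53 loci, 32 overlapped another coding locus and share peaks with it, including the neighbours Efna3 and Efna4.

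**Figure D1:**
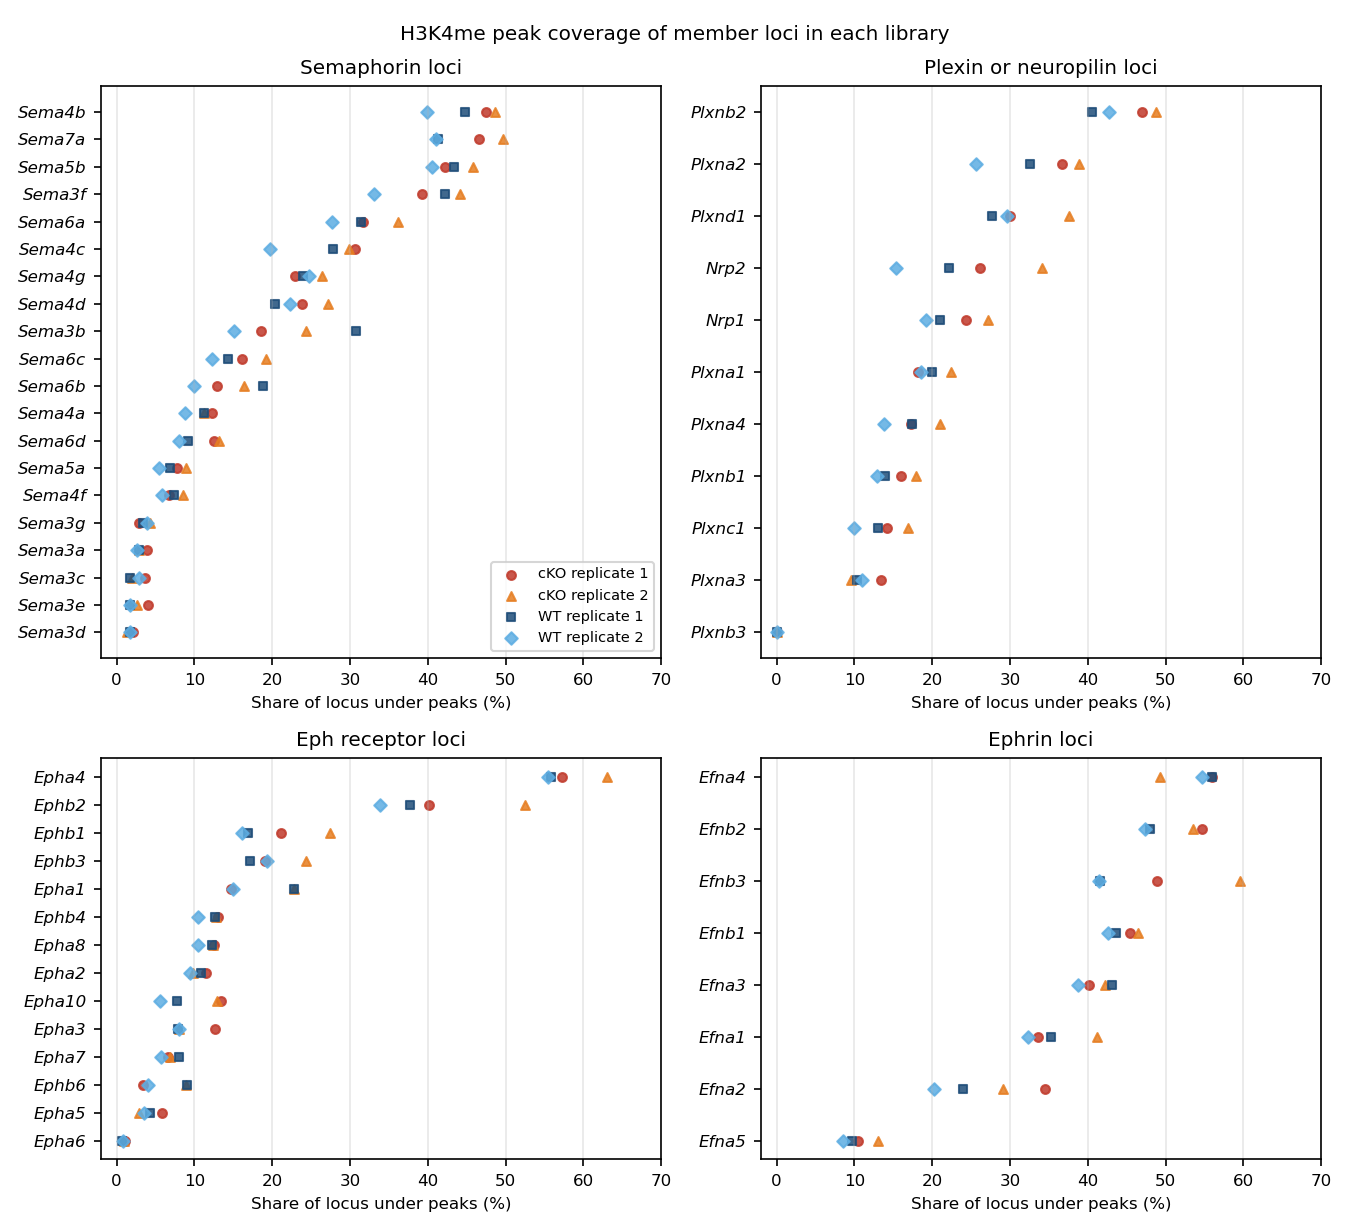
Share of each locus under H3K4me peaks (horizontal axis, percent), 1 point per library (cKO and WT, replicates 1 and 2), with genes grouped by family. Ephrin loci reach the highest family median and 5 of the 7 class 3 semaphorins lie near 0, while the points of the genotypes lie close together within most genes.

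Ephrin loci had the highest median share of the 4 families, 43.6% in cKO cortex and 41.2% in WT cortex, and the shortest median locus, 29.9 kb. In the shortest of them most bases were flank, with gene spans of 4.64 kb at Efna4 and 7.06 kb at Efnb3. The loci of Efna4 and Efnb3 overlapped those of 4 and 3 other coding genes, so their peaks cannot all be assigned to the ephrin gene. Efnb2, a transmembrane ligand of EphB receptors and EphA4, had peaks over 35.0 and 34.2 kb in cKO cortex, in a locus of 64.0 kb, against 30.7 and 30.3 kb in WT cortex. Efna4, a lipid-anchored ligand, had 13.8 and 12.1 kb of 24.6 kb covered in cKO cortex and 13.8 and 13.5 kb in WT cortex. Efnb2 did not overlap between the genotypes before centring, and Efna4 did. Efnb3, the transmembrane ephrin known in the mouse as a midline barrier for corticospinal axons, had 13.2 and 16.1 kb of 27.1 kb in cKO cortex and 11.2 kb in each WT library. Efnb1, the X-linked transmembrane ligand, had 15.0 and 15.3 kb of 33.0 kb in cKO cortex and 14.4 and 14.02 kb in WT cortex. Efna3, which borders Efna4, had 11.7 and 12.3 kb of 29.0 kb in cKO cortex and 12.5 and 11.3 kb in WT cortex. Before centring, covered bases of Efnb3 and Efnb1, like those of Efnb2, were higher in both cKO libraries than in either WT library. Those of Efna3 overlapped. The first pattern was found at 59.8% of the 14941 loci. After centring, Efnb1 (difference -0.29), Efnb2 (-0.21), Efna3 (-0.37) and Efna4 (-0.46) were lower in both cKO libraries than in either WT library. Efnb3 (-0.02) overlapped, and none of them was called. The least covered ephrin was Efna5, a ligand that helps to order topographic maps in the mouse, with a mean share of 10.4% over the 4 libraries. Its locus is also the longest of the family at 298.4 kb, and it held 31.0 and 38.9 kb of peaks in cKO cortex and 29.0 and 25.5 kb in WT cortex.

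Epha4 had the largest covered share of any guidance locus, 57.9% ± 3.54 over the 4 libraries (SD), which placed it in the top 0.656% of the 14941 loci. EphA4 is a receptor that binds ephrins of both types and acts in axon guidance and neuronal migration. Its locus on chromosome 1 (gene span 77367182 to 77515107, minus strand) had 96.1 and 105.9 kb of 167.9 kb under peaks in cKO cortex, against 93.7 and 93.1 kb in WT cortex. The longest guidance peak of 3 libraries lay in this locus, at 45395 bp in cKO replicate 2, 22027 bp in WT replicate 1 and 27382 bp in WT replicate 2. In cKO replicate 1 the longest was an Efnb2 peak of 24195 bp. The family median was nevertheless the lowest of the 4, 12.7% in cKO cortex and 10.8% in WT cortex, with long loci at a median of 112.1 kb.

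The EphB receptors, which bind mainly transmembrane ephrins, had a median share of 19.1% (mean over the 4 libraries), against 9.60% for the EphA receptors. Their median loci also differed in length, 44.4 kb for EphB and 167.9 kb for EphA receptors, and longer loci had smaller shares. Ephb2 had 83.7 and 109.6 kb of 208.8 kb covered in cKO cortex, against 78.7 and 70.8 kb in WT cortex. The strongest Ephb2 peak had an authors' fold enrichment of 9.09 and 8.03 in the cKO lists and 7.78 and 6.82 in the WT lists. In each of the 4 lists these peaks stood at percentile 99.2 of fold or above. At the other end, Epha6, whose 989.5 kb locus is the longest of the set, had 10.7 and 9.01 kb covered in cKO cortex and 6.60 and 7.53 kb in WT cortex. Epha5, a receptor of lipid-anchored ephrins, had a mean share of 4.14%, and the other Eph receptors lay between 6.37% at Ephb6 and 20.4% at Ephb1.

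Class 4 and class 5 semaphorins, which are held in the membrane, had median shares of 23.3% and 25.1% (mean over the 4 libraries). The class 5 median stands for 2 unlike loci, with mean shares of 7.21% at Sema5a and 43.0% at Sema5b. The secreted class 3 members, most of them neuropilin ligands, had 3.12%, and the transmembrane class 6 members 15.0%. The classes also differed in length, with a median locus of 175.5 kb in class 3 and 46.55 kb in class 4, and longer loci had smaller shares. The most covered semaphorin locus was Sema4b on chromosome 7, with 28.4 and 29.1 kb of 59.8 kb under peaks in cKO cortex and 26.8 and 23.9 kb in WT cortex. Sema7a, a lipid-anchored semaphorin that signals through integrins as well as plexin C1, had 20.1 and 21.5 kb of 43.3 kb in cKO cortex and 17.9 and 17.8 kb in WT cortex. Sema5b, a transmembrane semaphorin with thrombospondin repeats, had 60.4 and 65.6 kb of 143.1 kb in cKO cortex and 62.1 and 57.9 kb in WT cortex. Before centring, Sema4b and Sema7a were higher in both cKO libraries than in either WT library, and Sema5b overlapped. The first pattern was found at 59.8% of the 14941 loci. After centring, Sema4b (difference -0.20), Sema7a (-0.17) and Sema5b (-0.31) were lower in both cKO libraries than in either WT library, and none was called.

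The least covered semaphorin locus was that of Sema3d, with 4.67 and 2.89 kb of 225.8 kb under peaks in cKO cortex and 3.88 and 3.95 kb in WT cortex. Mean shares of the class 3 genes Sema3a, a repellent of cortical axons, Sema3c, Sema3e and Sema3g lay between 2.53% and 3.62%. Class 3 members were not uniformly low, since Sema3b had 22.2% and Sema3f had 39.7%. Sema3f had 19.2 and 21.6 kb of a 48.98 kb locus covered in cKO cortex, against 20.7 and 16.2 kb in WT cortex. Before centring, the covered bases of the class 3 genes overlapped between genotypes except at Sema3a and Sema3e. These were higher in both cKO libraries, as were 59.8% of the 14941 loci. After centring both overlapped, while Sema3f (difference -0.23) and Sema3g (-0.42) were lower in both cKO libraries than in either WT library. Sema3e, a ligand that can act on plexin D1 without a neuropilin, had 10.1 and 6.70 kb in cKO cortex and 4.19 and 4.39 kb in WT cortex. Sema3a had 19.5 and 14.2 kb of 498.7 kb in cKO cortex and 14.1 and 12.9 kb in WT cortex. The other semaphorins of classes 4 and 6 ran from 7.14% at Sema4f to 31.8% at Sema6a in mean share.

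Among the receptors of semaphorins, Plxnb2 was the most covered. Plexin B2 binds class 4 semaphorins and acts in neural progenitors. Its locus had 21.8 and 22.7 kb of 46.5 kb under peaks in cKO cortex and 18.8 and 19.8 kb in WT cortex. Plxna2 and Plxna4, receptors of class 6 semaphorins and, with neuropilins, of class 3, had among the most peak bases of the set in long loci. Plxna4 had 80.4 and 97.3 kb of 463.6 kb in cKO cortex and 80.5 and 64.3 kb in WT cortex. Plxna3 had the smallest share above 0 among the plexins, 11.1%. The other plexins lay between 13.5% at Plxnc1 and 33.4% at Plxna2. Of the neuropilins, Nrp1 had 40.6 and 45.3 kb of 166.9 kb covered in cKO cortex and 35.1 and 32.0 kb in WT cortex.

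Coverage was densest just inside the genes. For the 47 guidance genes with a RefSeq start in the promoter table, the first 10 kb after the start had 38.4% and 40.55% of its bases under peaks in cKO cortex, against 37.4% and 33.5% in WT cortex. The same part over all coding genes had 17.8% and 19.9% in cKO cortex and 15.4% and 13.6% in WT cortex. The 10 kb before the start had 16.45% and 17.4% in cKO cortex and 15.1% and 13.5% in WT cortex. In the rest of the gene the shares were 13.2% and 14.4% in cKO cortex and 11.2% and 10.3% in WT cortex. The difference between the guidance genes and all genes was thus widest in the first 10 kb, in each of the 4 libraries.

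**Figure D2:**
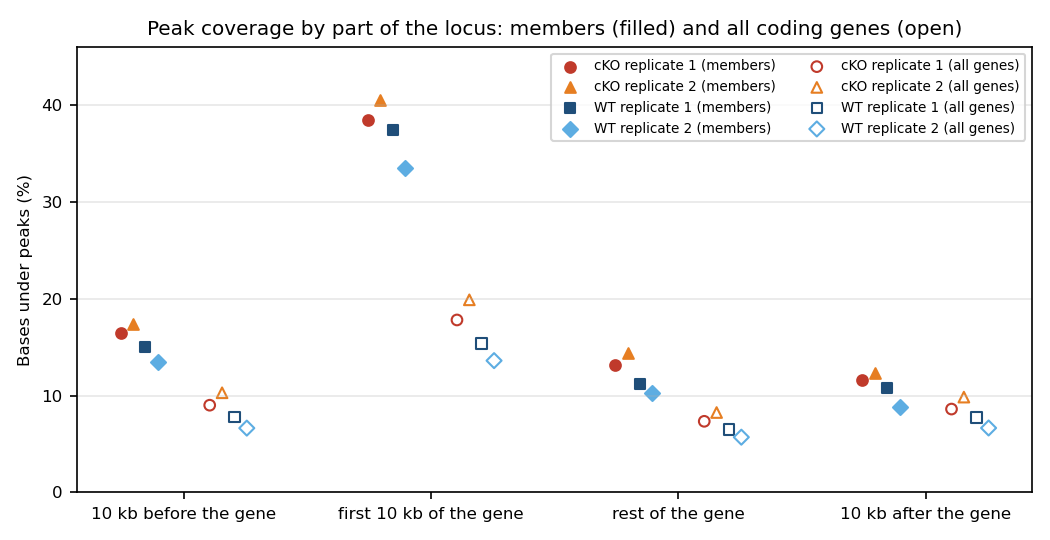
Percent of bases under peaks (vertical axis) in the 10 kb before the gene, its first 10 kb, the rest of the gene and the 10 kb after it, 1 point per library, for the guidance genes (filled) and all coding genes (open). The first 10 kb of the guidance genes holds 33.5% to 40.55%, against 13.6% to 19.9% over all genes.

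Coverage was highest between 500 and 2500 bp after the start in every library. In the bin from 1500 to 2000 bp after the start, 57.5% and 59.2% of guidance bases were under peaks in cKO cortex and 48.9% and 51.3% in WT cortex. In the 500 bp just before the start the values were 36.55% and 55.6% in cKO cortex and 43.9% and 32.6% in WT cortex. Coverage just before the start thus differed by more between replicates of a genotype than between the genotype means. Between 8000 and 8500 bp after the start it was 22.5% and 21.7% in cKO cortex and 20.2% and 20.3% in WT cortex, against 7.10% and 8.07% in cKO cortex and 6.22% and 5.52% in WT cortex over all coding genes.

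**Figure D3:**
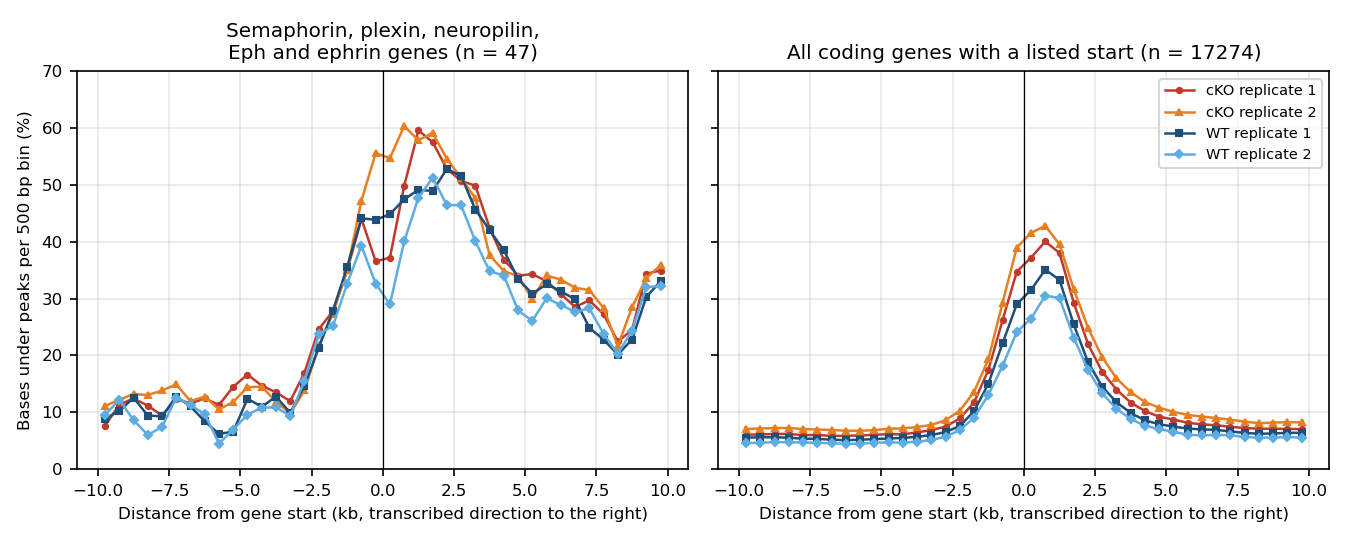
Percent of bases under peaks per 500 bp bin (vertical axis) against distance from the gene start in kb (horizontal axis, direction of transcription to the right), 1 line per library, for 47 guidance genes and 17274 coding genes. Guidance coverage stays above 20% in all 4 libraries 8 kb into the gene, and the libraries part most over the start itself.

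The start window, from 250 bases before to 50 bases after a start, was touched by a peak at 20 and 29 of 47 guidance genes in cKO cortex and at 25 and 21 in WT cortex. These are 42.55% and 61.7% in cKO cortex and 53.2% and 44.7% in WT cortex. Of 17274 coding genes the shares were 40.4% and 44.9% in cKO cortex and 34.9% and 29.8% in WT cortex. In all 4 libraries 15 guidance genes had a touched window (31.9%, against 23.5% of all genes), and in no library 14 (29.8%, against 49.05%). Of the 47 guidance genes, 0 had a window touched in both cKO libraries and in neither WT library. This pattern was found at 714 of 17274 coding genes. The reverse pattern was found at 1 of 47 guidance genes, Sema3g, and at 42 of 17274 coding genes. These small guidance counts moved with the setting. They were 1 and 0 with stricter peaks (−log10 q of at least 3), and 0 and 2 with equal numbers of peaks. Their difference from all coding genes was not tested.

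Many guidance starts lay in a gap with a peak close behind it. Of the guidance starts whose first base was not covered, 71.0% and 54.5% had a peak within 2 kb inside the gene in cKO cortex and 53.8% and 70.6% in WT cortex. Over all coding genes these shares were 36.6% and 32.1% in cKO cortex and 37.4% and 36.01% in WT cortex. The start base was covered in all 4 libraries at Efna1, Efna4, Epha1, Epha6, Ephb4, Sema4b, Sema4d, Sema4g and Sema5a. Some genes have several listed starts, and a single one was read for each. At Sema4d, the start window chr13:51748761-51749060 was under peaks in all 4 libraries. The windows of its other listed starts, chr13:51739397-51739696 and chr13:51756634-51756933, had no peak in any library. It was uncovered with a peak within 2 kb after it in all 4 libraries at Efna2, Epha2, Ephb1, Ephb3, Ephb6, Plxna3 and Plxnb1.

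At Epha4 and Efnb2, 2 of the 3 loci with the largest covered shares, the gap was wide. At Epha4 the start sat in an uncovered stretch of 5.04 and 4.01 kb in cKO cortex and 3.65 and 4.43 kb in WT cortex. The next peak inside the gene began 3282 and 3245 bp after the start in cKO cortex and 2864 and 3450 bp after it in WT cortex, and it ran for 21415 and 24089 bp in cKO cortex and for 22027 and 27382 bp in WT cortex. At Efnb2 the next peak began 5006 and 3987 bp inside the gene in cKO cortex and 4164 and 5581 bp inside it in WT cortex. The gap was present in every library of both genotypes at these genes. At Sema4b, by contrast, a stretch of 18406 bp shared by all 4 libraries (chr7:80186145-80204550) ran across the start. The longest shared stretch of Epha4 was chr1:77490392-77511638 (21247 bp), and that of Efnb2 was chr8:8638483-8655661 (17179 bp), both inside the gene.

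The start windows of 6 guidance genes are printed because they show both arrangements and the loci with the largest positive differences among those whose centred values did not overlap between genotypes. Each is 300 bases long, reads 5′ to 3′ on the gene's own strand, comes from RefSeq on GRCm38.p6 and has every CG dinucleotide in capitals. Epha4 (chr1:77515039-77515338, minus strand) and Efnb2 (chr8:8661193-8661492, minus strand) had no peak over the window in any library. Efna4 (chr3:89337979-89338278, minus strand) and Sema4b (chr7:80186620-80186919, plus strand) had one in all 4. Nrp2 (chr1:62703067-62703366, plus strand) and Epha10 (chr4:124881535-124881834, plus strand) had one in both cKO libraries and in WT replicate 1, and none in WT replicate 2.
Epha4: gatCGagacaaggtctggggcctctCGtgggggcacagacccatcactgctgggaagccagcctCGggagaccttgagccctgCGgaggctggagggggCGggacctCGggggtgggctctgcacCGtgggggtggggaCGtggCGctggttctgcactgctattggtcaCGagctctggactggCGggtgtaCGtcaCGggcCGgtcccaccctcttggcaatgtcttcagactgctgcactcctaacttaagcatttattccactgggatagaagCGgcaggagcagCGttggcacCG
Efnb2: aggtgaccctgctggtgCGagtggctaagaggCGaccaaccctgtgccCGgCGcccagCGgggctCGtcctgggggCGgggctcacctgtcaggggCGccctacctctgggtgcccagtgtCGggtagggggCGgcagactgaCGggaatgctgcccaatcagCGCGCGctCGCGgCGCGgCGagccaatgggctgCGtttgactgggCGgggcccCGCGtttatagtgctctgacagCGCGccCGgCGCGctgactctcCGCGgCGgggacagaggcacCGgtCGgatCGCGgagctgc
Efna4: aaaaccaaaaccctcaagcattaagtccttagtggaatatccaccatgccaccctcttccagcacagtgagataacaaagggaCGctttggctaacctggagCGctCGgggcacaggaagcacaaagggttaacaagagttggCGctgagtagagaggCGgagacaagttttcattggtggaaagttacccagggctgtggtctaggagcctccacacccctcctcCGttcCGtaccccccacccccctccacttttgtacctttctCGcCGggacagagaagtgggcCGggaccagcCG
Sema4b: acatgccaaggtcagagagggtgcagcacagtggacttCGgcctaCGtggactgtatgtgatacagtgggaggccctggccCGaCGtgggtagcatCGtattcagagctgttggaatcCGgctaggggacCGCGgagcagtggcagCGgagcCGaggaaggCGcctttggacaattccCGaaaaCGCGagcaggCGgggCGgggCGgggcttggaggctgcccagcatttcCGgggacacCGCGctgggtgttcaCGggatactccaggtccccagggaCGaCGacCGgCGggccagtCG
Nrp2: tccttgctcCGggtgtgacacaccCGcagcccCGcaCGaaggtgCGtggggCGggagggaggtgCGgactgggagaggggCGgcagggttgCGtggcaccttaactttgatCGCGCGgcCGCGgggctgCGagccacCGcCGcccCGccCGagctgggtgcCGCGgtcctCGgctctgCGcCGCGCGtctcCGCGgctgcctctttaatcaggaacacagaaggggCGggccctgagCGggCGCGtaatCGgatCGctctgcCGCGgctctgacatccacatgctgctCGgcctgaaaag
Epha10: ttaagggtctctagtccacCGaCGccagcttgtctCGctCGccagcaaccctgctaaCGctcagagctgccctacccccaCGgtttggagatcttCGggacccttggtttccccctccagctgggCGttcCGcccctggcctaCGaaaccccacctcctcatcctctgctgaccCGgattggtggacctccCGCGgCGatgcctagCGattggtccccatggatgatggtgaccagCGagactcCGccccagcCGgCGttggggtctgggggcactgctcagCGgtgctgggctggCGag

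The windows without a peak were not poor in CG. The Epha4 window held 17 CG dinucleotides and the Efnb2 window 35, against 11 at Efna4 and 26 at Sema4b, which were under peaks in all 4 libraries. The Nrp2 window held 37 and the Epha10 window 21. Across the 61 windows of guidance genes (a gene can have several), the median was 20 CG, against 13 over 21045 windows of coding genes, with CG read once for both strands because it is its own reverse complement. All 61 guidance windows held at least 1 CG, as did 95.5% of all windows. Guidance windows without a peak in any library had a median of 23 CG (19 windows) and those under a peak in all 4 had 15 (17 windows). Over all coding genes the order was the other way, with 5 CG in 10408 windows without a peak and 18 in 4815 windows under one in all 4.

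**Figure D4:**
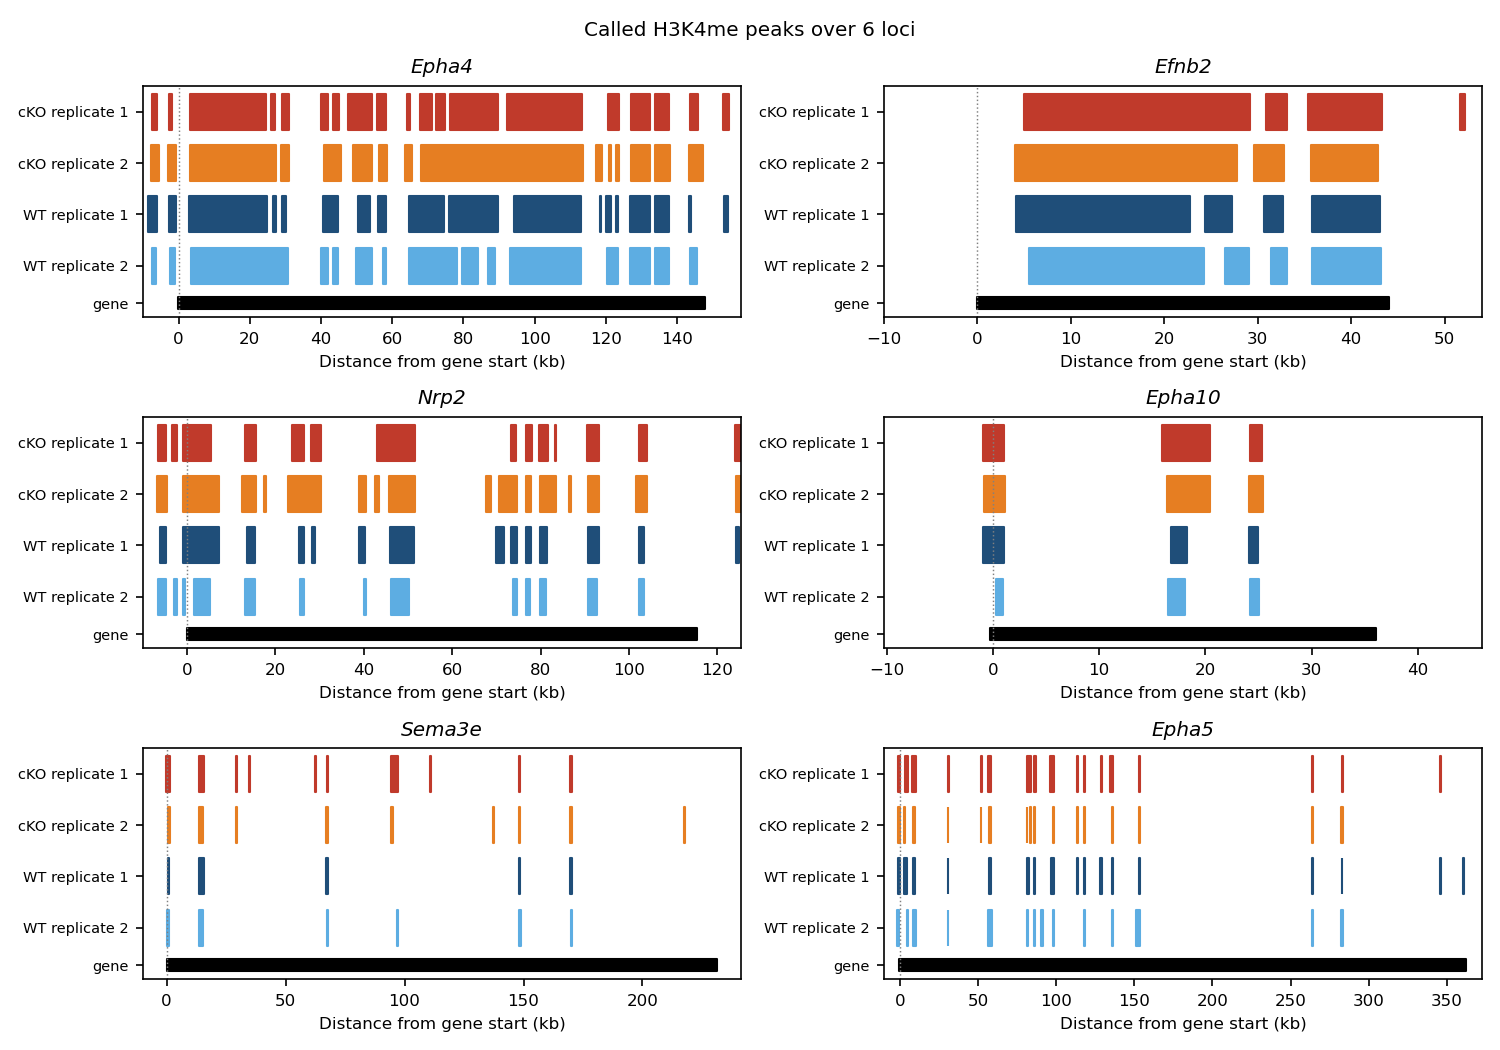
Called H3K4me peaks (bars) over 6 loci in the 4 libraries, cKO above WT, against distance from the gene start in kb. The start of Epha4 and of Efnb2 falls in a gap in every library. The peak about 16 to 20 kb inside Epha10 and several inside Nrp2 are wider in the cKO libraries.

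No guidance locus differed between genotypes past the threshold. On the log2(covered bases + 500) scale after centring, 0 of 52 guidance loci that passed the filter and 0 of all 14941 loci (0%) were called at a limma adjusted p under 0.05, and the guidance adjusted p-values ran from 0.416 to 0.991. At an unadjusted limma p under 0.05, 2 guidance loci were higher in cKO cortex (5.56% of all loci) and 6 were lower (4.44% of all loci). In simulated data on the same 14941 loci, this test recovered 5 of 50 log2 changes of 0.5, 21 of 50 changes of 1 and 41 of 50 changes of 2. All sizes, including 50 changes of 4, were planted in the same run, which eases the adjusted threshold for the small ones. Each simulated locus also had a spread smoothed over loci of similar coverage, so recovery among the real loci may differ.

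After centring, 9 guidance differences lay above 0 and 43 below (45.0% and 55.0% of all loci), with a median of -0.18 against -0.04 over all loci. Without centring 45 lay above 0 and 7 below, with a median of 0.20 against 0.35 over all loci. The direction of most guidance loci therefore flips with the scaling: most had more peak bases in cKO cortex, but by less than the median locus. Before centring, covered bases did not overlap between genotypes at 29 guidance loci higher in cKO cortex (59.8% of all loci) and at 0 lower in cKO cortex (1.22% of all loci). After centring, 3 did not overlap and were higher in cKO cortex (17.3% of all loci) and 21 were lower (27.2% of all loci). Covered share and difference had a Spearman rho of -0.05 across the 52 guidance loci and -0.23 across the 14941 loci.

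**Figure D5:**
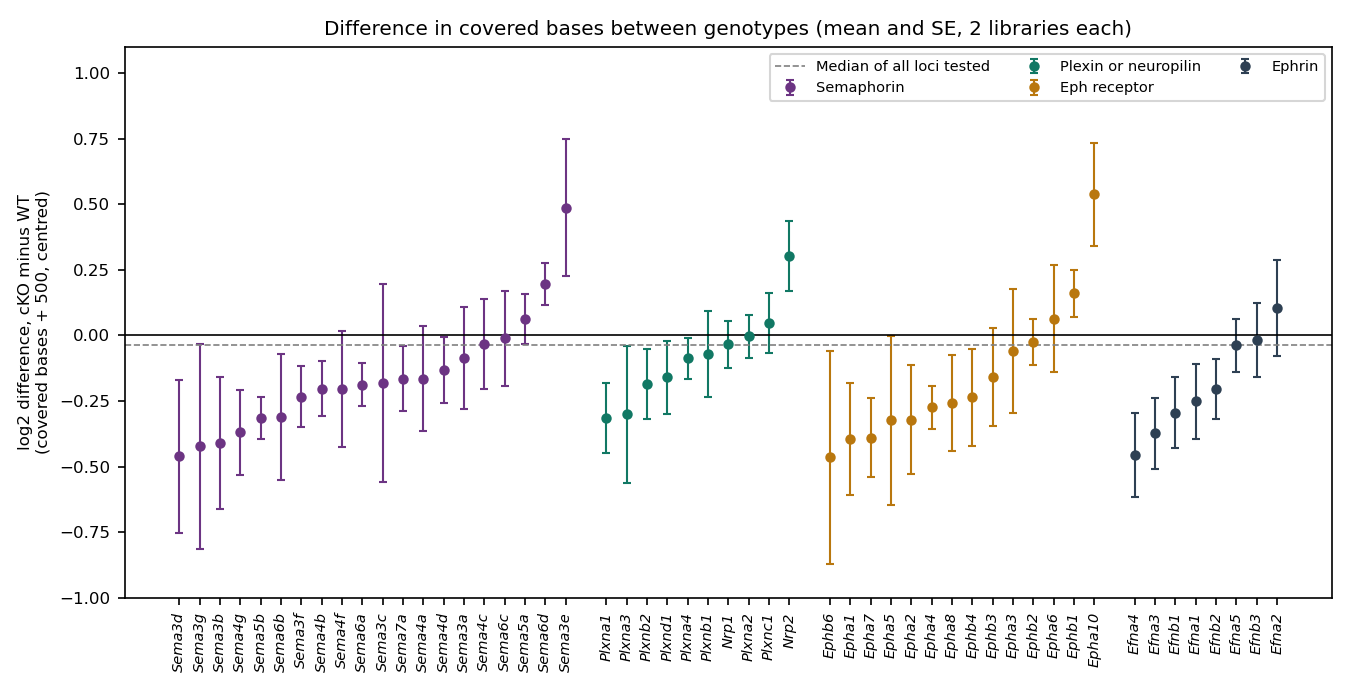
Difference in covered bases between genotypes for each guidance locus that passed the filter (vertical axis, cKO minus WT on the centred log2(covered bases + 500) scale, mean and SE from 2 libraries each), by family. Most points lie a little below 0, Epha10 stands highest at 0.54, and no locus passed the adjusted threshold.

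The largest positive difference was at Epha10, which encodes an Eph receptor with an inactive kinase domain. Peaks covered 7.55 and 7.29 kb of its 56.3 kb locus in cKO cortex and 4.34 and 3.11 kb in WT cortex, and the centred difference was 0.54 ± 0.20 (SE, limma adjusted p = 0.474). With a flank of 25 kb in place of 10 kb the difference was 0.13. All 4 libraries had 3 peaks there, so the number of peaks did not differ. The peak about 16 to 20 kb inside the gene was 4487 and 3968 bp wide in cKO cortex, against 1504 and 1619 bp in WT cortex. The peak at the start was 1969 and 2004 bp wide in cKO cortex, against 1932 and 700 bp in WT cortex.

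Nrp2, the neuropilin that binds class 3 semaphorins such as Sema3f, had 35.3 and 46.2 kb of 135.4 kb under peaks in cKO cortex and 29.9 and 20.7 kb in WT cortex. Its centred difference was 0.30 ± 0.13 (SE, limma adjusted p = 0.499), and leaving out WT replicate 2 gave 0.15, leaving out WT replicate 1 gave 0.46. The size of this difference thus rested largely on WT replicate 2. Between 43 and 52 kb inside the gene a peak measured 8544 and 5838 bp in cKO cortex and 5513 and 4087 bp in WT cortex. Sema6d, a transmembrane ligand of plexin A1, had 74.7 and 78.5 kb of 597.8 kb in cKO cortex and 54.8 and 47.6 kb in WT cortex, with a centred difference of 0.20 ± 0.08 (SE, limma adjusted p = 0.486). At these 3 loci the cKO libraries lay above the WT libraries with and without centring. Sema3e had a larger centred difference than Nrp2, 0.49, but its centred values overlapped between genotypes.

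The named differences below 0 were at loci whose peak bases overlapped between genotypes or differed by less than those of the median locus. Efna4, with the values given above, had the lowest of the 21 loci without overlap, -0.46 ± 0.16 (SE, limma adjusted p = 0.474), and -0.28 without cKO replicate 2. The limma adjusted p-values of the 8 lowest of these loci ran from 0.474 to 0.705. Its neighbour Efna3, which shares peaks with it, had -0.37 ± 0.13, and 0.01 without centring. Sema3g followed at -0.42 ± 0.39 with very few bases, 0.915 and 1.41 kb of 32.5 kb in cKO cortex and 1.11 and 1.27 kb in WT cortex. The low-coverage value of Sema3g thus had an SE nearly as large as the difference, which was -0.25 without WT replicate 2.

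Among the Eph receptors, Epha1 had 5.13 and 7.94 kb of 34.8 kb under peaks in cKO cortex and 7.94 and 5.22 kb in WT cortex, with a centred difference of -0.40 ± 0.21. Leaving out 1 library moved the Epha1 difference to between -0.60 (no cKO replicate 2) and -0.19 (no cKO replicate 1), and to -0.22 with no WT replicate 1. Epha7, a receptor of lipid-anchored ephrins with a patterned cortical expression in the mouse, had 11.5 and 11.9 kb of 174.4 kb in cKO cortex and 13.97 and 9.90 kb in WT cortex, and a difference of -0.39 ± 0.15, or -0.26 without WT replicate 1. Epha2 had 5.57 and 4.72 kb of 48.2 kb in cKO cortex and 5.24 and 4.56 kb in WT cortex, and a difference of -0.32 ± 0.21, which was -0.13 without cKO replicate 2 and -0.52 without cKO replicate 1. At all 3 receptors the covered bases themselves overlapped between genotypes.

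Of the semaphorin side, Sema4g, a transmembrane class 4 member, had 7.93 and 9.15 kb of 34.7 kb in cKO cortex and 8.29 and 8.59 kb in WT cortex, and a difference of -0.37 ± 0.16, or -0.24 without WT replicate 2. Plxna1, a co-receptor with neuropilins, had 12.1 and 14.9 kb of 66.3 kb in cKO cortex and 13.2 and 12.3 kb in WT cortex, and a difference of -0.31 ± 0.13. Sema5b and Epha4 were picked after their values were seen, Sema5b for the lowest p and Epha4 for the largest covered share. Their unadjusted limma p-values were the lowest of the set (0.00459 and 0.0104). Sema5b and Epha4 had differences of -0.31 ± 0.08 and -0.27 ± 0.08, with limma adjusted p = 0.416 and 0.459. The Epha4 difference was -0.17 without WT replicate 2. Without centring these 4 differences were between 0.01 and 0.11, above 0. Neither direction passed the test at any of them.

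Regions present in 1 genotype alone were counted next. An interval of at least 200 bp covered in both cKO libraries with no peak base in either WT library was found 34 times, in 14 guidance loci, out of 5591 in the genome (0.608%). The reverse was found 5 times, in 5 loci, out of 581 (0.861%). Intervals covered in all 4 libraries numbered 416 in 51 loci, out of 57587 (0.722%). The guidance loci take up 0.311% of chromosome length counted from first gene to last. All 3 kinds of interval exceeded that share, but these loci also had more of their bases under peaks than the median kept locus. Exceeding 0.311% is thus not particular to genotype-specific intervals. The cKO-only share of 0.608% was below the 0.722% of intervals covered in all 4 libraries. The cKO-only intervals had a median of 435 bp and the shared ones 1158 bp. All 14 loci with a cKO-only interval were at least 135.4 kb long, and 21 guidance loci are that long, so these intervals were found at long loci.

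The longest cKO-only interval lay in Plxna2 at chr1:194695806-194697771 (1966 bp), 77.0 kb from its start, with another of 930 bp at chr1:194699385-194700314. Epha3, a receptor of lipid-anchored ephrins, held one at chr16:63836488-63837816 (1329 bp), 27.02 kb from its start. Sema5a, a transmembrane relative of Sema5b, held one at chr15:32483054-32484146 (1093 bp), 238.8 kb from its start, and Nrp1 one at chr8:128437062-128437935 (874 bp), 78.4 kb from its start. These intervals were all deep inside the gene spans. Of the 34 cKO-only intervals, 32 (94.1%) lay between the gene's ends, as did 87.7% of the shared intervals and all 5 WT-only ones. Ephb1 held the most, 5. Over its whole locus, Plxna2 had 79.5 and 84.2 kb of 217.1 kb under peaks in cKO cortex and 70.6 and 55.8 kb in WT cortex. Epha3 had 43.1 and 27.1 kb of 340.6 kb in cKO cortex and 27.1 and 27.3 kb in WT cortex. Sema5a had 36.4 and 42.1 kb of 471.5 kb in cKO cortex and 32.1 and 25.4 kb in WT cortex. Before centring, the covered bases of Plxna2 and Sema5a were higher in both cKO libraries than in either WT library, and those of Epha3 overlapped. The first pattern was found at 59.8% of the 14941 loci. After centring, the genotypes overlapped at Plxna2 (difference -0.003), Sema5a (0.06) and Epha3 (-0.06).

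The WT-only intervals were shorter, with a median of 354 bp. The longest, 440 bp in Sema3g (chr14:31217789-31218228), covered the start of that gene, which encodes a secreted class 3 semaphorin. The others lay in Epha6 (chr16:60086932-60087323, 392 bp), Sema3a (chr5:13413709-13414062, 354 bp), Epha7 (chr4:28966845-28967094, 250 bp) and Epha3 (chr16:63666581-63666809, 229 bp). Epha3 thus held intervals of both kinds. With each list cut to the same covered length, guidance loci held 1 cKO-only and 37 WT-only intervals, so which kind was more frequent depended on the length of the lists.

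The other genes of both pathways were read from a list of 50 co-receptors, adaptors, exchange factors and effectors. All 50 passed the filter and 0 were called by limma at an adjusted p under 0.05 (0% of all loci). Their centred differences were 25 above 0 and 25 below with a median of 0.0033, against 9 above and 43 below for the guidance genes and -0.04 over all loci. At an unadjusted limma p under 0.05, 1 was higher in cKO cortex (5.56% of all loci) and 3 were lower (4.44% of all loci). The centred values of the genotypes did not overlap at 10 higher in cKO cortex (17.3% of all loci) and 14 lower (27.2% of all loci), so the counts for the list of 50 were near those shares.

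Limk1, a kinase that phosphorylates cofilin downstream of both systems, had the largest positive difference. Its locus had 9.56 and 10.03 kb under peaks in cKO cortex and 4.54 and 3.48 kb in WT cortex, a centred difference of 0.82 ± 0.17 (SE, limma adjusted p = 0.407). With no filter on low coverage its limma adjusted p was 0.0374, and with lists of equal covered length its difference was 0.19. Next were the adaptor Nck1 (0.59), the integrin subunit Itgb1 (0.53), the GTPase Rac1 (0.48) and the exchange factor Vav3 (0.32). The largest negative differences were at Adam10, a protease that cleaves ephrins (-0.46), the adhesion molecule Chl1 (-0.34), the kinase Cdk5 (-0.33), the adhesion molecule Cntn2 (-0.31) and the receptor kinase Met (-0.30). Among these, Vav3 had -0.14 when WT replicate 2 was left out and 0.77 when WT replicate 1 was, and Adam10 had 0.07 when cKO replicate 2 was left out and -0.99 when cKO replicate 1 was, so a single library set their direction.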

How the data were processed

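H3K4me ChIP-seq of embryonic mouse cortex was analysed as 4 lists of broad peaks, 2 from cKO and 2 from WT cortex, and the 4 inputs were not used here. The mm10 build, FastQC, cutadapt, Bowtie2 2.2.8 and MACS2 2.1.1 are named, per the submitters' processing notes. How MACS2 was set and whether it took the inputs is not given in the sources used here. The deposited lists give, for each peak called on its own library, a score, a fold enrichment (a ratio) and −log10 p-values and q-values, all as the authors' caller wrote them. Read counts were not used here, so depth is unknown, and no interval for counting error is given; a deeper library gives more and wider peaks. Fold and q only described or filtered peaks within 1 list.

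Per locus and library, log2(covered bases + 500) was taken, a mean of at least 1000 bases was required, and library medians were set equal. The comparison of cKO with WT used limma 3.58.1 (R 4.3.3; eBayes with trend, two-sided, Benjamini-Hochberg over 14941 loci, threshold 0.05), which was tested on simulated data and made 4 false calls there. Differences on this scale understate changes of thinly covered loci. Interval arithmetic ran in Python 3.11.15 (numpy 2.4.6, pandas 2.3.3). Gene starts and promoter sequences came from RefSeq (GRCm38.p6), which listed a start for 47 of the 53 genes; Sema3b, Sema3f, Sema6a, Plxna1, Plxna4 and Efnb3 were not matched. Genes with values in every library were the 10 largest covered shares, the largest differences without overlap between genotypes (up to 8 per direction), the holders of the 5 longest genotype-specific intervals of each kind, the longest peak per library and the extremes of each family; of the pathway list, the 5 largest differences per direction are named, with library values for the largest alone. The members and lists were chosen with earlier results of these data known. Of the dorsal cortex markers, 1 gene is not reported here. Alternatives varied the peaks, flank, pseudocount, filter, scaling, block, interval length, start window and the libraries.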

Additional observations from a re-analysis of the deposited data

How the results depend on the processing

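No guidance locus was called under any of the 16 alternatives, in which the lowest limma adjusted p of a named guidance gene was 0.0506 (Efna4) and the highest 0.986 (Epha7). With no filter, 183 loci were called higher in cKO cortex and 144 lower, of which 119 had a mean under 1000 bases. Leaving out a library (the lone one is then assumed to vary like the other genotype) gave 0 to 119 calls higher and 0 to 5 lower, the highest without WT replicate 1 and no guidance locus among them. At an unadjusted limma p under 0.05 it gave 360 to 1379 higher and 269 to 859 lower, the lowest without cKO replicate 2 and the highest without WT replicate 1. Those unadjusted counts were 530 higher with lists of equal covered length, 487 higher and 319 lower with the filter at 5000 bases, 3196 higher and 10 lower without centring, and, among the lower ones, 309 with stricter peaks (−log10 q of at least 3), 379 on the gene span, 6462 without a filter and 360 with cyclic loess. Guidance differences above 0 numbered 21 with stricter peaks, 16 with equal numbers of peaks, 22 with equal covered length, 16 with a pseudocount of 2000, 16 with the filter at 5000 bases, 6 with no filter, 17 with cyclic loess, 9 to 16 without 1 library, and 45 (7 below) without centring. The direction is thus tied to scaling and list length; the cause was not tested.

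Single differences changed sign at Efna3 (0.081 with stricter peaks, 0.0099 without centring), Epha2 (0.11 and 0.062), Chl1 (0.37 and 0.041), Plxna1 (0.085 with equal covered length, 0.069 without centring), Cdk5 (0.069 and 0.056) and Met (0.10 and 0.085). Without centring they also did at Sema4g (0.014), Sema5b (0.070), Epha4 (0.11) and Cntn2 (0.074). Nck1 had -0.16 with a flank of 25 kb and Vav3 -1.58 with equal covered length. Over the fits without 1 library, Vav3 ran from -0.14 to 0.77 and Adam10 from -0.99 to 0.069; the cause was not tested.

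The median covered share of guidance loci in cKO cortex was 13.8% with equal covered length. In WT cortex it was 11.95% with stricter peaks, 18.25% on the gene span and 14.3% with 25 kb flanks. Guidance loci held 17 cKO-only and 11 WT-only intervals with equal numbers of peaks, 1 and 37 with equal covered length, and 14 and 0 at a minimum of 500 bp. With stricter peaks, WT-only intervals numbered 2, shared ones 216 (267 with equal covered length), and touched starts in WT replicate 2 numbered 13. The replicate numbers share only a number in the labels, and deviations of same-numbered libraries correlated at -0.0962 over 14941 loci. With the replicate block, 0 loci were called, 783 were higher and 452 lower at an unadjusted limma p under 0.05, and 9 guidance differences lay above 0.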
